A study of Mus musculus with 12 samples.

Results

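Hedgehog pathway genes were followed, 9 of the 24421 gene rows listed for each library and chosen by symbol alone: the ligands Shh and Ihh, the receptor Ptch1 and the transducers Smo and Sufu, the transcription factors Gli1, Gli2 and Gli3, and the antagonist Hhip. Livers and lungs of newborns that were WT (Man1a2 +/+) or null (Man1a2 -/-), taken within an hour of birth without treatment, were sequenced as 3 libraries for each genotype and tissue and 12 in all. The null mice carry the Man1a2tm1.1Ahe allele, a constitutive deletion of exon 2 of a Golgi mannosidase gene that trims N-linked glycans, and both genotypes came from heterozygous matings. Each library held 26759463 to 42914295 counted reads. Levels are given as CPM, the reads of a gene scaled to library size, on which 3 reads amount to 0.0699 to 0.112. Whole organs were sampled at 1 time point, so each value is an average over all cell types of the tissue.

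Hedgehog ligands are secreted, lipid-modified proteins. In their absence the receptor PTCH1 holds SMO inactive, and SUFU and a set of kinases turn GLI2 and GLI3 into retained or repressor forms at the primary cilium; ligand binding to PTCH1 releases SMO and lets activator forms reach the nucleus. Gli1, Ptch1 and Hhip are themselves induced by the pathway and are widely used as its readouts. In the developing lung the epithelium makes SHH and the mesenchyme responds, whereas in liver the pathway is known mainly from bile duct cells, stellate cells and injury.

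Libraries were checked before the members were compared. Null lung 1 stood apart, with Pearson's r of 0.826 to 0.845 with the other lungs on log2 CPM against 0.961 to 0.993 among the other 5. All 6 lung epithelium markers had reads in it, but their summed level was 421 CPM. It was 21123 to 25260 in WT lungs and 28282 and 21225 in null lungs 2 and 3. Most of the WT sum was Sftpc, the surfactant protein that defines alveolar type II cells. It stood at 35.3 CPM in null lung 1 against 16129 to 20299 in WT. The drop was not even over the list: Epcam at 155 CPM lay within the WT range of 131 to 159. Cdh1 stood at 181 CPM against 357 to 403. The 6 cardiac muscle markers summed to 19923 CPM in null lung 1 against 193 to 297 in WT, and the 6 skeletal muscle markers to 12935 CPM against 24.1 to 32.0. Null lungs 2 and 3 were raised too, at 643 and 480 CPM for cardiac and 72.0 and 56.6 CPM for skeletal muscle. In each list 5 of the 6 genes lay above all WT lungs in both. Leaving out null lung 1 therefore does not remove all of this difference. Null liver 1 held 5881 CPM of skeletal muscle markers against 5.37 to 6.29 in WT livers, 523 CPM of cartilage markers against 9.44 to 14.5, and 1855 CPM of fibroblast markers against 325 to 427. Its hepatocyte markers, at 153161 CPM, lay within the WT range of 126646 to 160023. The comparisons of genotypes are therefore given with and without null lung 1 or null liver 1 for each member, and the part of these other cell types in a result was not tested except where a value is stated.

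Man1a2 itself was read first. In liver it stood at 67.5, 40.7 and 52.5 CPM in WT and at 40.4, 36.8 and 38.7 in null, a log2 fold change of -0.47 (SE 0.17, adjusted p = 0.0809 by edgeR), and -0.50 (SE 0.20, adjusted p = 0.105 by edgeR) without null liver 1. In lung it stood at 137, 99.5 and 141 CPM in WT and at 56.7, 64.3 and 66.3 in null, a log2 fold change of -1.01 (SE 0.18, adjusted p = 0.0614 by edgeR). Without null lung 1 it was -0.95 and called (SE 0.16, adjusted p = 0.00430 by edgeR). All 6 null libraries lay below the WT libraries of their tissue. The counts cover the whole gene and not exon 2 alone, so they do not measure the deleted part directly.

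In WT tissue the 9 members were first ordered by level. Levels are compared between genes as CPM per kilobase of annotated exon, scaled over all 12 libraries. In WT lung the highest level was that of Hhip at 13.6 ± 0.238 CPM per kb (SD, n = 3), followed by Shh at 11.2 ± 1.13 and Smo at 10.5 ± 1.31. Shh and Smo overlapped and could not be ordered. Sufu at 3.71 ± 0.0918 and Ptch1 at 3.68 ± 0.313 overlapped too, and so did Gli1 at 1.86 ± 0.639, Gli2 at 1.48 ± 0.130 and Gli3 at 1.38 ± 0.0302, each with the next. Ihh was last at 0.103 ± 0.0295 CPM per kb.

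In WT liver the order was different. Smo led at 6.42 ± 0.764 CPM per kb (SD, n = 3), and Hhip at 2.47 ± 0.144 and Sufu at 2.46 ± 0.399 followed without being separable. Ihh at 0.919 ± 0.345 and Ptch1 at 0.875 ± 0.200 overlapped. Gli1 at 0.363 ± 0.0507 overlapped Gli3 at 0.343 ± 0.0368, and Gli2 was below both at 0.232 ± 0.0572. Shh had no read in any of the 6 livers, WT or null, which allows at most 0.0798 to 0.0930 CPM per library; this covers counting error only. WT liver 2 held 30.7 CPM of the lung marker Sftpc, against 0.113 to 4.25 in the other livers, and no read of Shh.

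**Figure D1:**
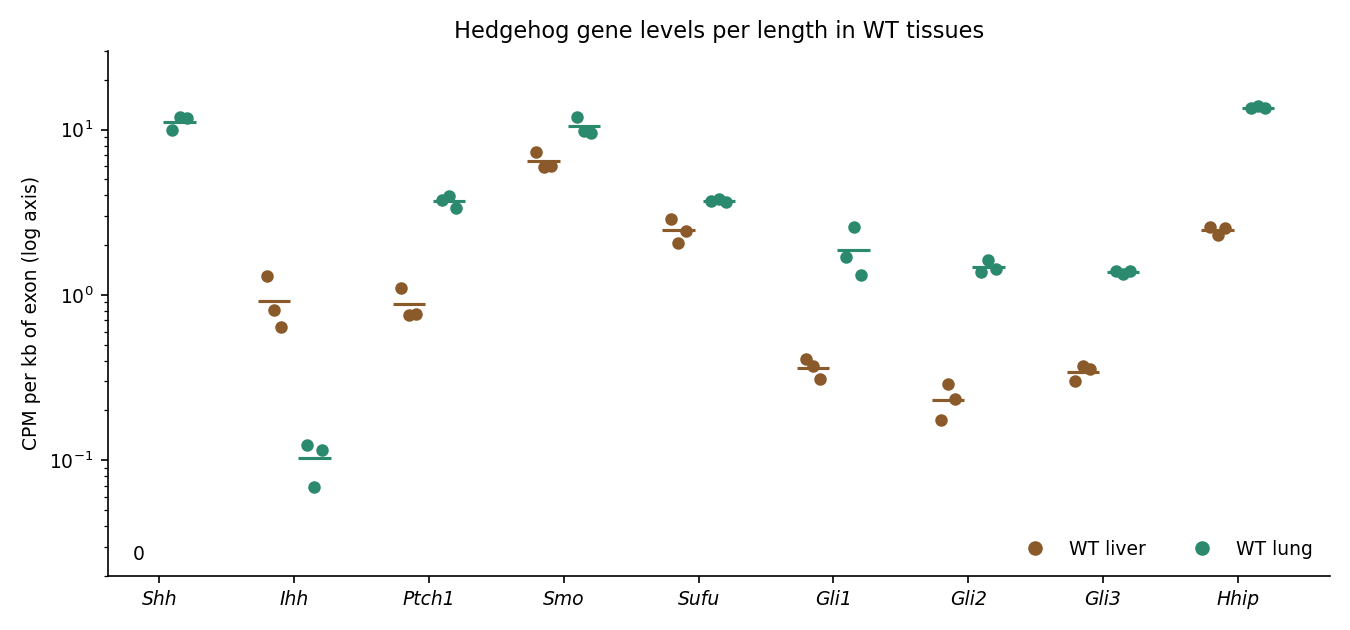
Level of each Hedgehog gene in WT liver (brown) and WT lung (green), in CPM per kb of exon on a log axis; each point is 1 library and the bar is the mean of 3. Shh is at 0 in liver and at 11.2 CPM per kb in lung, while Ihh is at 0.919 in liver and 0.103 in lung.

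The leading ligand differed between the tissues. Of all 16155 genes tested between WT lung and WT liver, 62.7% were called (adjusted p under 0.05 and at least 1.2-fold), and all 9 members were among them. Ihh was 8.79-fold lower in lung (log2 fold change -3.14, SE 0.46, adjusted p = 0.000165 by edgeR). Shh, on the scale of total counts, stood at 38.0 to 46.9 CPM in WT lungs and was at least 408-fold higher than in WT livers, taking 3 reads per library as the floor. The other 7 members were higher in lung. The difference was largest for the GLI factors and the readouts, at a log2 fold change of 2.67 (SE 0.29) for Gli2, 2.46 (SE 0.56) for Hhip, 2.36 (SE 0.44) for Gli1, 2.07 (SE 0.25) for Ptch1 and 2.01 (SE 0.30) for Gli3. It was smaller for Smo at 0.70 (SE 0.21) and Sufu at 0.60 (SE 0.13), the components that relay and restrain the signal. Smo alone lost its call without 1 library, WT lung 1, at a highest adjusted p of 0.0595 by edgeR.

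**Figure D2:**
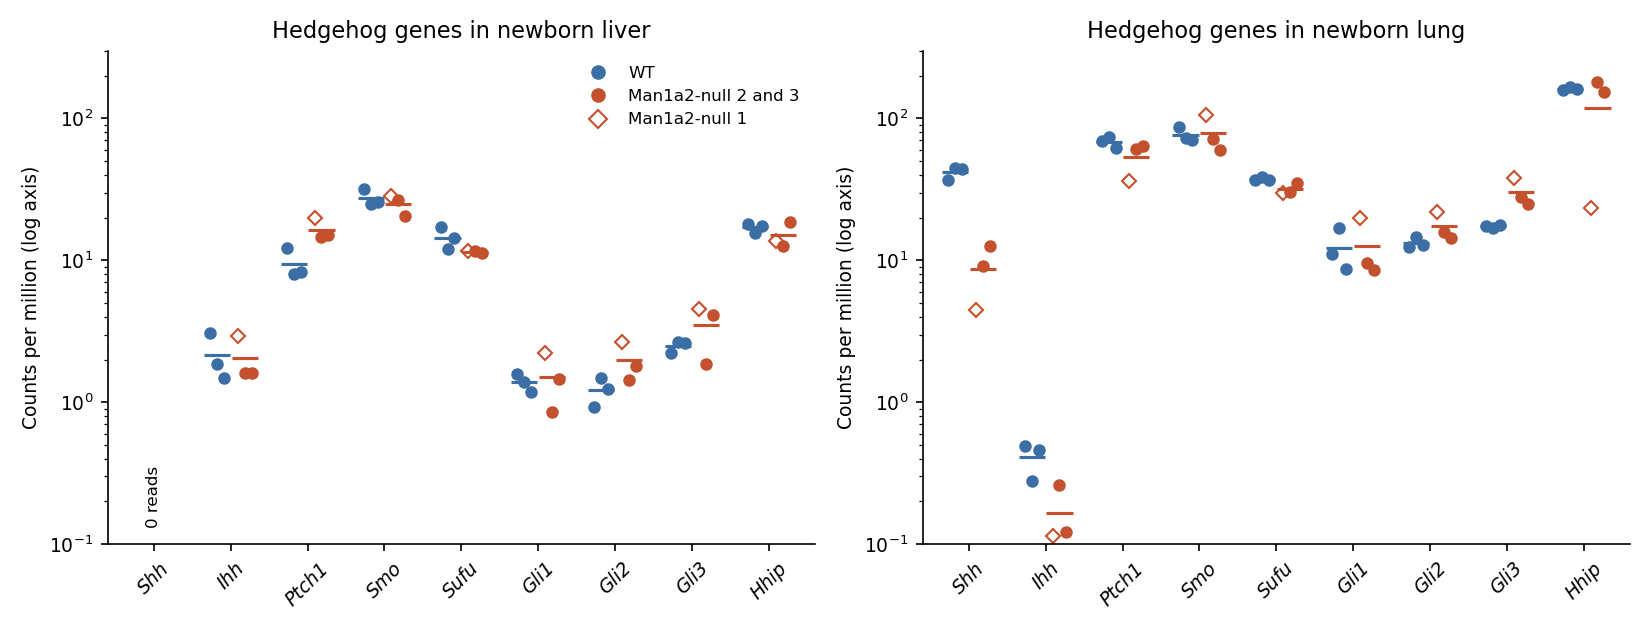
CPM of the 9 members in each liver library (left) and each lung library (right) on a log axis, scaled within the tissue; blue points are WT, red points are null, the open diamond is null library 1, and bars are means of 3. In liver the null values of Ptch1 lie above the WT values, and in lung the null values of Shh lie below them and those of Gli3 above them.

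Shh, the lung ligand, was lower in every null lung. WT lungs 1, 2 and 3 stood at 36.7, 44.6 and 44.1 CPM, from 1570, 1286 and 1520 reads. Null lungs 1, 2 and 3 stood at 4.43, 9.19 and 12.6 CPM, from 117, 352 and 516 reads. The groups did not overlap, and the highest null lung was well below the lowest WT lung. The null level was 4.78-fold lower (log2 fold change -2.26, SE 0.38), with an adjusted p of 0.0592 by edgeR, which narrowly missed the threshold. Without null lung 1 it was 3.84-fold (log2 fold change -1.94, SE 0.18, adjusted p = 0.000689 by edgeR), and DESeq2 on all 6 lungs gave an adjusted p of 9.55e-06.

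The 6 lung epithelium markers went in both directions in null lungs 2 and 3, where 3 were above all WT lungs and 1 was below them. Cdh1, which encodes E-cadherin, stood at 764 and 650 CPM there against 357 to 403 in WT, and Sftpd, a surfactant protein gene, at 945 and 957 CPM against 1074 to 1273. Nkx2-1, the transcription factor that marks lung epithelium, stood at 262 and 341 CPM against 290 to 321. In null lung 1 the Nkx2-1 level was 23.6 CPM, while Cdh1 stood at 181 CPM and Epcam at 155, within its WT range of 131 to 159. In whole tissue, fewer cells of a type and less RNA per cell cannot be told apart. Shh lies on the minus strand of chromosome 5 (chr5:28456815-28467256, GRCm38), where its exons overlap 9530036O11Rik and Gm26894 on the opposite strand. 9530036O11Rik had 129, 98 and 96 reads in WT lungs and 7, 66 and 55 in null lungs, far fewer than Shh, and whether the counting used the strand is not given in the sources used here.

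Ihh (chr1:74945315-74951672), the ligand present in liver, did not separate the genotypes there. WT livers stood at 3.08, 1.86 and 1.49 CPM and null livers at 2.92, 1.60 and 1.62, and number 1 was the highest of each genotype. The log2 fold change was -0.07 (SE 0.37, adjusted p = 0.909 by edgeR), and -0.41 (SE 0.34) without null liver 1. In lung Ihh had 21, 8 and 16 reads in WT and 3, 10 and 5 in null, or 0.491, 0.277 and 0.464 CPM against 0.114, 0.261 and 0.122. The null lungs were all below the WT lungs, but at this depth the log2 fold change of -1.29 (SE 0.48) had an adjusted p of 0.176 by edgeR. Without null lung 1 it was -1.12 (SE 0.50, adjusted p = 0.117 by edgeR).

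Ptch1, the ligand receptor and a pathway target, was the member called in liver. The gene lies on the minus strand of chromosome 13 (chr13:63508328-63573598, GRCm38), with no exon of another gene over its exons. WT livers 1, 2 and 3 stood at 12.2, 8.02 and 8.30 CPM and null livers at 19.8, 14.5 and 14.97. All null livers were above all WT livers. The rise was 1.73-fold (log2 fold change 0.79, SE 0.21, adjusted p = 0.0278 by edgeR). It was 1 of 8 members tested, where 26.9% of all 14343 genes tested were called. The highest value was that of null liver 1, and without it the difference was 1.55-fold (log2 fold change 0.64, SE 0.20, adjusted p = 0.0528 by edgeR, 0.0251 by DESeq2). With that library left out, edgeR called 23.8% of all genes and DESeq2 26.6%. The call was also lost without WT liver 2 or WT liver 3, and it held without each of the other 3 libraries, with log2 fold changes from 0.64 to 1.01 over the 6 fits. Calls over all genes fell as well, to 2268 of 14546 without WT liver 2 and 1641 of 14529 without WT liver 3. The Ptch1 call was lost too with all 12 libraries in 1 fit (log2 fold change 0.80, SE 0.24, adjusted p = 0.0572 by edgeR). That fit called 1921 of 16155 genes in liver.

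In lung Ptch1 stood at 69.6, 73.7 and 62.2 CPM in WT and at 36.0, 61.3 and 63.8 in null. Null lungs 2 and 3 lay at or just below the low end of the WT range and null lung 1 lay far below it. The log2 fold change was -0.35 (SE 0.24, adjusted p = 0.391 by edgeR), and -0.13 (SE 0.11) without null lung 1.

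The difference between these 2 responses of Ptch1 was tested directly. Ptch1 was singled out for this contrast with earlier results of these data known, so its unadjusted p is not independent evidence. The lung response minus the liver response was -1.15 on the log2 scale (SE 0.34), with an unadjusted p of 0.00656 and an adjusted p of 0.179 by edgeR, so Ptch1 was not called among all 16155 genes, of which 0.371% were. Taking the number as an animal block gave -1.19 (SE 0.39, adjusted p = 0.268 by edgeR). The difference was -0.90 without null lung 1 (SE 0.25, adjusted p = 0.0659 by edgeR, 0.00929 by DESeq2), where edgeR called 5% and DESeq2 11.9% of all genes. It was -0.77 without null lung 1 and null liver 1 (SE 0.23, adjusted p = 0.0802 by edgeR, 0.0286 by DESeq2), where they called 5.18% and 10.9%. Its sign was the same in each of these fits. DESeq2 did not call it on all 12 libraries (adjusted p = 0.0535) or without null liver 1 alone (adjusted p = 0.163), so the call depended on the test and on null lung 1.

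None of the other members with reads in liver was called for a tissue difference either, by edgeR or by DESeq2 on all 12 libraries. Ptch1, singled out with earlier results known, was the only one of the 8 members with reads in liver to have an unadjusted p under 0.05 by edgeR. Of all genes, 13.9% had one. For Shh no difference can be estimated, because liver held no read. The lung response minus the liver response was -1.22 (SE 0.63) for Ihh, -0.33 (SE 0.39) for Gli2, 0.32 (SE 0.41) for Gli3, 0.16 (SE 0.30) for Smo and 0.08 (SE 0.19) for Sufu. For the other readouts it was -0.25 (SE 0.75) for Hhip and -0.09 (SE 0.59) for Gli1 with all 12 libraries. These intervals are too wide to place either beside Ptch1. Without null lung 1 the Hhip difference was 0.26, against -0.90 for Ptch1. With each library left out in turn, the difference ran from -0.53 to 0.32 for Gli1 and from -1.35 to -0.90 for Ptch1.

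GLI factors bind DNA, and promoter sequence is shown for the readouts Ptch1 and Hhip, which report on them. That of Gli2 is printed too, as the 1 with the inner match given below. Gli3, which also encodes a GLI factor, had no such match and is not printed. RefSeq promoters on GRCm38.p6, each 250 bases before to 50 after a start site, were at hand for 7 of the 9 members, all except Shh and Gli1. The GLI consensus GACCACCCA was searched on both strands. It was in none of the 7, and 0.253% of all 32851 promoters hold it. Its inner 7 letters, ACCACCC, were in 1 of the 7, that of Gli2, and in 4.61% of all promoters. The start of the table is 1 start per gene, and for Ptch1 it lies inside the annotated gene. The 250 bases before each start are printed 5′ to 3′ on the strand of the gene. Capitals mark the reverse complement of ACCACCC in Gli2, beginning 205 bases before the start, and otherwise the stretches nearest to the 9-letter consensus on either strand, which differ from it at 2 letters in Hhip and at 3 in Ptch1.

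Ptch1, chr13:63565736-63565985, minus strand: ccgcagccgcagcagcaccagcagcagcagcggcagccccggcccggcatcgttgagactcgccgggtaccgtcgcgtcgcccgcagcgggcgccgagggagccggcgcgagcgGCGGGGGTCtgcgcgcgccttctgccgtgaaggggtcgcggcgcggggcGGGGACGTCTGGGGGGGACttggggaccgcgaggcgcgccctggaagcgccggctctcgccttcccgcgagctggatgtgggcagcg
Hhip, chr8:80058009-80058258, minus strand: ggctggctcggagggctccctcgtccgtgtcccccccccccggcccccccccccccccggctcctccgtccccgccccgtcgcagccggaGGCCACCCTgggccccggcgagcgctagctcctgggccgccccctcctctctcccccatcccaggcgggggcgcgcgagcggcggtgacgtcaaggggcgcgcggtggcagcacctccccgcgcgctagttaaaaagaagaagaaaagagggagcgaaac
Gli2, chr1:119053620-119053869, minus strand: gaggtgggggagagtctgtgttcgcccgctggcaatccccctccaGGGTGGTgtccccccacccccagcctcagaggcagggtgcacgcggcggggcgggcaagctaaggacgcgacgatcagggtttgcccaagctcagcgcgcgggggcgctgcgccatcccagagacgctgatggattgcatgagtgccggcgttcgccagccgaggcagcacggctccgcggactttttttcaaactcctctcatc

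Stretches within 2 letters of the consensus occur in 58.3% of all promoters of this length and within 3 letters in 99.4%, so the capitals in Ptch1 and Hhip single out nothing about these genes. No match in this window says nothing of sites farther away.

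Hhip (chr8:79965851-80058006), a surface and secreted protein that binds Hedgehog ligands and is induced by them, was the most abundant member in WT lung. WT lungs stood at 160, 166 and 160 CPM and null lungs at 23.3, 181 and 152. Null lungs 2 and 3 lay on either side of the WT lungs, and only null lung 1 was low. The log2 fold change was -0.44 (SE 0.67, adjusted p = 0.708 by edgeR) with null lung 1 and 0.04 (SE 0.11, adjusted p = 0.772 by edgeR) without it. In liver Hhip stood at 18.1, 15.7 and 17.6 CPM in WT and at 13.8, 12.7 and 18.6 in null, overlapping groups with a log2 fold change of -0.19 (SE 0.16, adjusted p = 0.417 by edgeR), and -0.13 (SE 0.18) without null liver 1.

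Gli1 (chr10:127329882-127341974), the GLI factor that depends most on pathway activity for its own expression, varied between replicates more than between genotypes. In lung WT stood at 11.1, 16.9 and 8.67 CPM and null at 19.9, 9.61 and 8.53. The highest was null lung 1, and the log2 fold change went from 0.05 (SE 0.42) with it to -0.43 (SE 0.28, adjusted p = 0.260 by edgeR) without it. In liver, WT stood at 1.58, 1.39 and 1.18 CPM and null at 2.24, 0.855 and 1.46. Here too the highest was null library 1, and the log2 fold change went from 0.13 (SE 0.36) to -0.27 (SE 0.33) without it. The exons of Gli1 overlap those of Arhgap9 and Gm47200 on the opposite strand. Arhgap9 had 423 to 677 reads per liver, where Gli1 had 32 to 79, so its liver values are uncertain if strand was not used.

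The 3 readouts therefore gave no common direction. In liver Ptch1 rose while Hhip and Gli1 were at -0.19 and 0.13 on the log2 scale and not called. In lung without null lung 1, Ptch1, Hhip and Gli1 were at -0.13, 0.04 and -0.43, none of them called, beside -1.94 for Shh, which was.

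**Figure D3:**
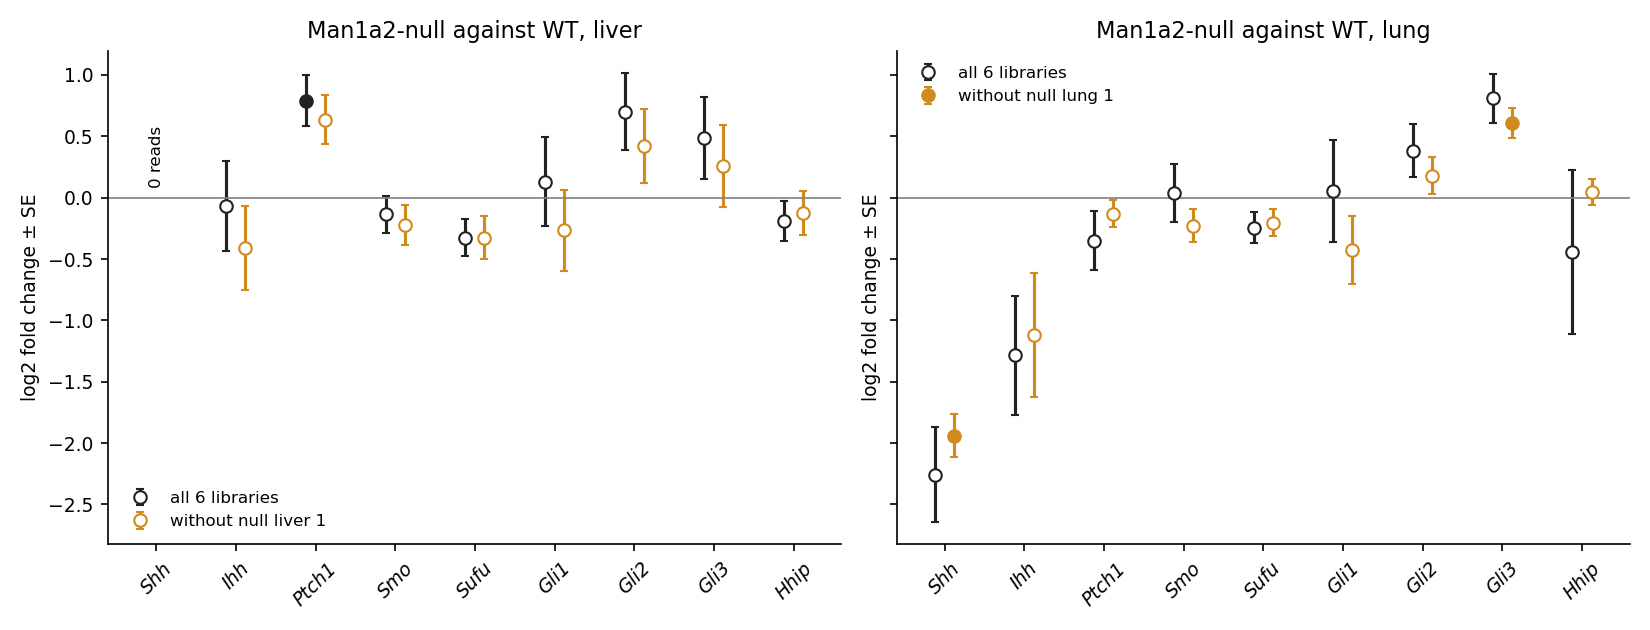
Log2 fold change of null against WT for each member in liver (left) and lung (right), with SE; black is all 6 libraries of the tissue, orange leaves out null library 1, and filled points passed the call of adjusted p under 0.05 and 1.2-fold by edgeR. Ptch1 in liver is filled at 0.79, and Shh at -1.94 and Gli3 at 0.61 in lung are filled once null lung 1 is left out.

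Gli3 (chr13:15463235-15730026), which acts mainly as a repressor when ligand is absent, was higher in every null lung. WT lungs stood at 17.3, 16.95 and 17.7 CPM and null lungs at 38.3, 27.8 and 25. The groups did not overlap and the WT lungs lay close together. The difference was 1.75-fold (log2 fold change 0.81, SE 0.20), with an adjusted p of 0.0913 by edgeR and of 0.00370 by DESeq2. Without null lung 1 it was 1.52-fold (log2 fold change 0.61, SE 0.12, adjusted p = 0.00803 by edgeR). The 6 fibroblast markers summed to 2963 to 3525 CPM in WT lungs, to 14644 in null lung 1 and to 3489 and 3215 in null lungs 2 and 3. Pdgfra, a mesenchymal receptor in that list, stood at 120 to 144 CPM in WT lungs, at 266 in null lung 1 and at 204 in both null lungs 2 and 3. It was the 1 gene of the list above all WT lungs in null lungs 2 and 3, and 2 were below them. Tcf21, a mesenchymal transcription factor, stood at 140 and 135 CPM there against 252 to 309 in WT. Pdgfrb stood at 209 and 244 against 246 to 269. In null lung 1 Tcf21 and Pdgfrb were lower still, at 34.5 and 101 CPM. The 6 smooth muscle and myofibroblast markers summed to 799 to 813 CPM in WT lungs, to 3707 in null lung 1 and to 476 and 454 in null lungs 2 and 3. The part of mesenchymal content in the Gli3 values was not tested.

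In liver Gli3 stood at 2.24, 2.66 and 2.62 CPM in WT and at 4.51, 1.87 and 4.15 in null. Null livers 1 and 3 were above the WT livers and null liver 2 below them, and the log2 fold change of 0.48 (SE 0.33) had an adjusted p of 0.311 by edgeR. It was 0.26 (SE 0.33) without null liver 1. Without null liver 2, the null liver below WT, the log2 fold change was 0.77 and called, at an adjusted p of 0.0412 by edgeR. That fit called 3395 of 14582 genes. The exons of Gli3 overlap those of Gm6556 on the opposite strand, and those of Hhip overlap Gm27820 in the same way.

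Gli2 (chr1:118834132-119053619), the main activator among the GLI factors, stood at 0.928, 1.49 and 1.23 CPM in WT livers and at 2.67, 1.44 and 1.81 in null livers. Null liver 2 lay within the WT range, and the log2 fold change of 0.70 (SE 0.31) had an adjusted p of 0.134 by edgeR. Without null liver 1 it was 0.42 (SE 0.30). In lung Gli2 stood at 12.4, 14.7 and 12.9 CPM in WT and at 21.9, 15.7 and 14.4 in null, a log2 fold change of 0.38 (SE 0.22, adjusted p = 0.316 by edgeR), and 0.18 (SE 0.15) without null lung 1. In both tissues null library 1 had the highest Gli2 and Gli3 of all 6 libraries, and it also had the highest summed fibroblast markers. The list was not uniform: in lung 4 of its 6 genes were highest in null lung 1 and 2 were lowest. In liver 4 were highest in null liver 1 and 0 lowest.

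Smo (chr6:29735503-29761365) and Sufu (chr19:46396896-46488804), which relay and restrain the signal, were called in neither tissue. Smo stood at 25.1 to 31.8 CPM in WT livers and 20.6 to 28.2 in null livers (log2 fold change -0.13, SE 0.15), and at 71.0 to 87.7 CPM in WT lungs and 60.1 to 106 in null lungs (log2 fold change 0.04, SE 0.24). Its groups overlapped in both tissues. Without null liver 1 and without null lung 1 these were -0.22 (SE 0.17) and -0.23 (SE 0.13), so the sign in lung turned. Sufu was lower in every null library without being called. WT livers stood at 17.1, 11.95 and 14.3 CPM against 11.5, 11.7 and 11.3 (log2 fold change -0.33, SE 0.15, adjusted p = 0.141 by edgeR). WT lungs stood at 37.0, 38.6 and 36.8 CPM against 29.8, 30.2 and 34.9 (log2 fold change -0.24, SE 0.13, adjusted p = 0.287 by edgeR). Without null library 1 they were -0.33 (SE 0.18) in liver and -0.20 (SE 0.11) in lung.

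Over all members, 0 of 9 were called in lung by edgeR, where 0.327% of 15591 genes were; 3 of the 9 had an unadjusted p under 0.05, as did 25% of all genes. DESeq2 called Shh and Gli3, 2 of 9, where it called 15.1% of genes. With null lung 1 left out, edgeR also called Shh and Gli3, 2 of 9, where 37% of 15885 genes were called. The groups did not overlap for 4 of 9 members in lung, where 36.1% of genes tested did not, and for 2 of 8 in liver, where 46.6% did not. The median log2 fold change of the members was 0.03 in liver and -0.24 in lung, beside 0.02 and 0.06 over all genes tested.

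**Figure D4:**
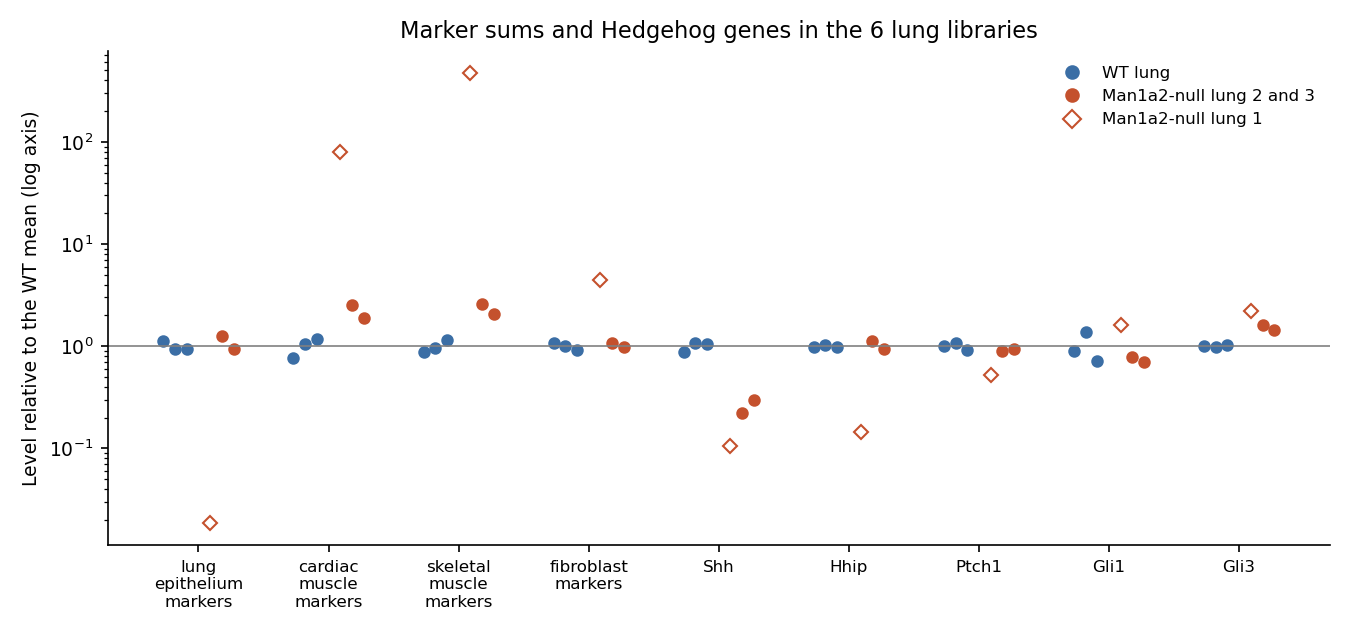
Level in each lung library relative to the mean of the 3 WT lungs, on a log axis, for 4 summed marker lists of 6 genes each and for 5 Hedgehog genes; blue is WT, red is null and the open diamond is null lung 1. Null lung 1 is far from 1 in the marker lists and in Hhip, while Shh is low and Gli3 is high in all 3 null lungs.

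The wider pathway was read from a list of 56 further genes present in the tables, which fell into 5 groups. In liver 12 of 50 tested (24.0%) were called, 6 higher and 6 lower, near the 26.9% of all genes. All 12 were in the groups for ciliary transduction and for GLI kinases and turnover. In lung 0 of 55 were called by edgeR, beside 0.327% of all genes, and DESeq2 called 10 of 56, beside 15.1%. An unadjusted p under 0.05 was found for 13 of the 55. Of all genes, 25% had one in lung and 5935 of 14343 in liver. Once null lung 1 was left out, 21 of 56 (37.5%) were called, 6 higher and 15 lower, beside 37% of all genes.

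With all libraries edgeR called no ligand handling gene in either tissue, with 2 of 4 in liver and 2 of 6 in lung at an unadjusted p under 0.05. DESeq2 called Scube1 in liver, 1 of 6, and Dhh and Scube1 in lung, 2 of 6, beside 29.8% and 15.1% of all genes. Dhh, the third Hedgehog ligand, was at 16.0, 15.3 and 15.2 CPM in WT lungs and at 5.19, 3.84 and 6.36 in null lungs. All null lungs, null lung 1 included, were near a common low level. The log2 fold change was -1.60 (SE 0.24), with an adjusted p of 0.0541 by edgeR, and without null lung 1 it was -1.60 (SE 0.23, adjusted p = 0.00250 by edgeR). The exons of Dhh overlap those of Rhebl1 and Gm49442. Scube1, from a family of secreted proteins that help release ligand, had the lowest p of the group in liver. It stood at 2.13, 2.72 and 2.57 CPM in WT livers and at 1.42, 0.614 and 1.56 in null livers (log2 fold change -1.05, SE 0.36, adjusted p = 0.0628 by edgeR). In lung it was higher in null, at 20.9, 10.3 and 13.01 CPM against 7.51, 8.42 and 7.60, and it was called without null lung 1 (log2 fold change 0.57, SE 0.17, adjusted p = 0.0349 by edgeR).

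Among co-receptors and surface antagonists edgeR called 0 of 6 in either tissue with all libraries, with 2 in liver and 0 in lung at an unadjusted p under 0.05. DESeq2 called Gas1 and Gpc3 in liver, 2 of 6, and 0 of 6 in lung, beside 29.8% and 15.1% of all genes. Gpc3, a glypican that competes for ligand, had the lowest p in liver, at 800, 679 and 583 CPM in WT and 745, 1070 and 1277 in null (log2 fold change 0.58, SE 0.21, adjusted p = 0.0775 by edgeR), and was called at 0.77 without null liver 1. Gas1, a co-receptor, had the lowest p in lung, and its high value of 310 CPM was that of null lung 1 against 59.1 to 101 in the other 5. With null lung 1 left out, the co-receptors Cdon and Boc were called lower, at log2 fold changes of -0.76 and -0.45. For both genes null lung 1 was the highest of the 6 lungs, on the other side of WT from null lungs 2 and 3.

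In the ciliary transduction group 6 of 20 (30.0%) were called in liver, beside 26.9% of all genes. Gpr161, a ciliary receptor that keeps the pathway off, was at 0.382, 0.310 and 0.314 CPM in WT livers and at 0.737, 0.694 and 1.78 in null livers. It rose 3.15-fold (log2 fold change 1.65, SE 0.45, adjusted p = 0.0314 by edgeR). Evc2, which sits with SMO at the ciliary base, rose by 0.91 on the log2 scale (SE 0.24, adjusted p = 0.0289 by edgeR). Iqce and Efcab7, which tether the EVC complex, fell by 1.01 (SE 0.15) and by 0.94 (SE 0.26) on that scale. Dync2h1, the heavy chain of the retrograde ciliary motor, fell by 0.81 (SE 0.19), and Arrb1, a beta-arrestin, fell by 0.65 (SE 0.20). The group thus held called genes in both directions, and its median log2 fold change was -0.02. Without null liver 1 Evc2, Efcab7 and Arrb1 were at 0.74, -0.87 and -0.64 and missed the threshold by edgeR, while DESeq2 still called Evc2 and Arrb1. That fit called 4 of 20 by edgeR, Tulp3 among them, beside 23.8% of all genes.

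In lung Stk36, a kinase of the group, had its lowest p, at 10.2, 13.8 and 14.9 CPM in WT and 5.08, 5.33 and 6.70 in null (log2 fold change -1.18, SE 0.24, adjusted p = 0.0735 by edgeR). The null lungs were all below the WT lungs. It was called without null lung 1 at -1.10, together with Arrb1 at -1.02 and Efcab7 at -0.94, both lower as in liver, and Mgrn1 at 0.33. These were 4 of 20 in the group, below the 37% of all genes called in that fit.

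Among GLI kinases and turnover factors 6 of 11 were called in liver, each by less than 1.5-fold, beside 26.9% of all genes. Gsk3b and Csnk1a1, kinases that mark GLI proteins for processing, rose by 0.38 (SE 0.10) and 0.37 (SE 0.10) on the log2 scale. Spop and Cul3, an adaptor and the scaffold of a ubiquitin ligase that degrades GLI proteins, both rose by 0.46 (SE 0.11 and 0.10). Btrc, the F-box protein that starts GLI3 processing, fell by 0.53 (SE 0.12), and Numb, which aids GLI1 turnover, fell by 0.45 (SE 0.10). Without null liver 1 Gsk3b and Csnk1a1 were at 0.38 and 0.37 and missed the threshold by edgeR (adjusted p = 0.0664 and 0.0632), while DESeq2 called both (adjusted p = 0.0428 and 0.0138). In lung Dzip1, a ciliary protein that binds GLI factors, had the lowest p, at 10.6, 11.2 and 11.2 CPM in WT and 20.01, 19.3 and 18.9 in null. The 3 null lungs agreed closely, null lung 1 included (log2 fold change 0.82, SE 0.15, adjusted p = 0.0638 by edgeR). In this group 7 of 11 were called without null lung 1, beside 37% of all genes.

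Of the targets edgeR called 0 of 9 in liver and 0 of 12 in lung with all libraries, with 1 and 4 at an unadjusted p under 0.05. DESeq2 called 0 of 9 in liver and 2 of 13 in lung, Snai1 and Ccnd1, beside 29.8% and 15.1% of all genes. Jag2 had the lowest p in liver, resting on 4.14 CPM in null liver 1 against 0.588 to 1.59 in the other 5. Ccnd1, the cyclin D1 gene, had the lowest p in lung, at 203, 165 and 189 CPM in WT and 93.6, 111 and 61.9 in null (log2 fold change -1.06, SE 0.24, adjusted p = 0.0823 by edgeR). Every null lung was below every WT lung. Without null lung 1, 5 of 13 targets (38.5%) were called, beside 37% of all genes, and all 5 were lower: Ccnd1 at -1.10, Snai1 at -1.11, Foxl1 at -1.23, Bmp4 at -0.61 and Ccnd2 at -0.46. Foxf1, a mesenchymal target in the lung, was not called, at 375, 397 and 317 CPM in WT and 27.3, 336 and 460 in null.

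**Figure D5:**
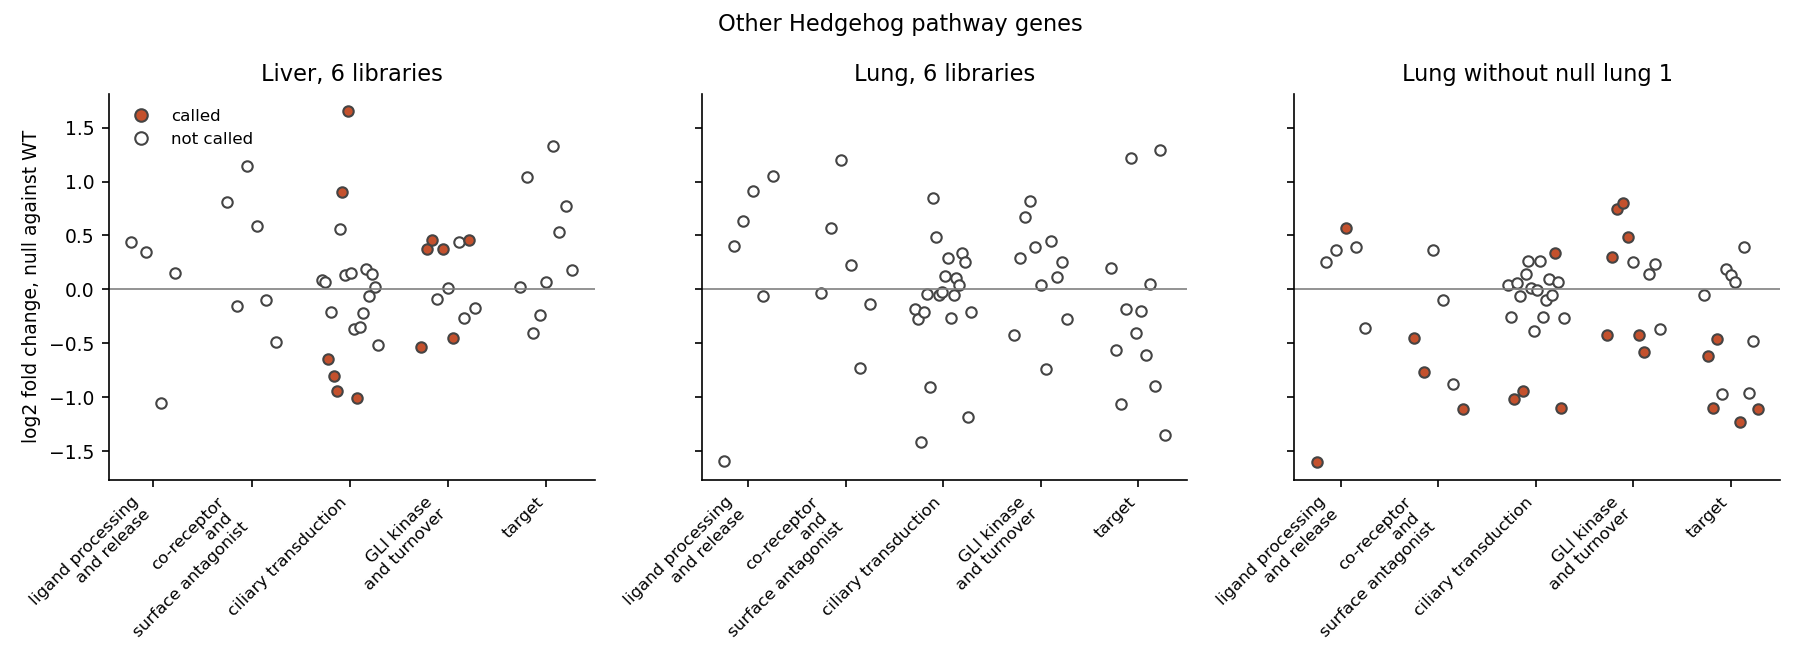
Log2 fold change of null against WT for the other pathway genes, 1 point a gene, in 5 groups, for liver, for lung, and for lung without null lung 1; filled points passed the call by edgeR. Filled points stand on both sides of 0 in liver, there are none in lung with all 6 libraries, and 21 appear in lung once null lung 1 is left out.

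Between tissues 0 of 55 pathway genes were called for a difference by edgeR, beside 0.371% of all genes. An unadjusted p under 0.05 was found for 11 of them and for 13.9% of all genes. DESeq2 called 5 of 54, where it called 3.94% of genes. Without null lung 1 edgeR called Dhh, 1 of 55, where it called 5% of all genes. The lung response minus liver response of Dhh was -2.06 (SE 0.49, adjusted p = 0.0414 by edgeR). Dhh had only 9, 7 and 9 reads in WT livers and 12, 6 and 15 in null livers. With all libraries edgeR did not keep it for the liver test, so the liver side of this difference rests on few reads. Without null lung 1 and null liver 1, edgeR called Scube1, Gpr161 and Dzip1, at 1.79, -2.24 and 1.18, where it called 5.18% of all genes.

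The genes whose levels moved most like the readouts over the 12 libraries, after the mean of each tissue was subtracted, were Clcn6, Tbc1d25 and Srebf2 for Ptch1 (Pearson's r 0.938, 0.936 and 0.935), Ptpdc1, Mmp23 and Twist2 for Gli1 (0.907, 0.893 and 0.885), and Pvrl2, Pgs1 and Bpifb5 for Hhip (0.990, 0.987 and 0.977). These are descriptions over 12 libraries that share 2 tissues and 2 genotypes. Over the 10 libraries without null liver 1 and null lung 1, r was 0.861 to 0.908 for the Ptch1 genes and 0.843 to 0.863 for the Gli1 genes, but 0.237 to 0.701 for the Hhip genes. Among the readouts themselves r was 0.505 for Ptch1 and Hhip, -0.05 for Ptch1 and Gli1 and -0.53 for Hhip and Gli1 over 12 libraries. Over the 10 libraries it was -0.21, 0.08 and 0.50, so all 3 changed sign.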

How the data were processed

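Per the labels and the study's methods, polyadenylated RNA was made into stranded libraries and read as pairs of 75 bp on a NextSeq. The authors' processing notes name FastQC, STAR 2.5.2a, DESeq2 and mm10, while the counting program, its annotation and its use of strand are not given in the sources used here. The authors deposited raw counts, whole numbers of reads per gene symbol without normalization, 1 table per library. Of the 24421 rows, 27 have date-like names and are not named here.

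Genes were kept with filterByExpr, scaled with TMM factors and compared between genotypes within each tissue by edgeR 4.0.16 (R 4.3.3) with the quasi-likelihood test and Benjamini-Hochberg adjustment over all genes tested. A gene was called at an adjusted p under 0.05 and at least 1.2-fold. SE was derived from the F statistic, as the fold change on the log2 scale divided by its root. Tissue differences came from an interaction term in 1 fit of 12 libraries. Genotype values in CPM are scaled within a tissue. Positions and exon lengths come from GENCODE M21 on GRCm38 and promoters from RefSeq. Figures and tables used Python 3.11.15 and pandas 2.3.3, and DESeq2 1.42.0 was an alternative. The tests were tested on simulated data.

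The members, gene lists and tests were chosen with earlier results of these data known. Named were all members, Man1a2, each other pathway gene called in a tissue, the gene of lowest p in each group and tissue without a call, and the 3 genes most like each readout among genes of at least 1 log2 CPM. Pathway genes called without a library, and Foxf1, were chosen after their values were seen. With 3 libraries a group, p-values measure the spread between these libraries. No 2 libraries were copies of each other, the lowest chi-square per gene within a group being 15.4. The labels do not say that liver and lung of 1 genotype and number came from 1 animal, and this pairing was inferred. Deviations from group means correlated at 0.184 to 0.468 in all 6 pairs. Both tissues of a number agreed in expression of the female-specific Xist in 6 of 6. Xist was on in 1 of 3 WT and 2 of 3 null mice. Alternatives were DESeq2, its size factors, upper-quartile factors, other count filters, the number as a block, no minimum fold, 1 fit of all libraries, and each library left out.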

Additional observations from a re-analysis of the deposited data

How the results depend on the processing

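The counts of called members and pathway genes moved most with single libraries. Leaving out each library in turn gave 0 to 2 members and 1 to 11 pathway genes called in liver (1 and 12 with all), 0 to 2 and 0 to 21 in lung (0 and 0 with all), and 0 to 1 pathway genes for the tissue difference. The lung counts of 2 and 21 are those without null lung 1, and the liver count of 1 pathway gene is that without WT liver 3, where 3 and 5 were called without WT liver 1 and WT liver 2. The liver count of 2 members is that without null liver 2, where 3395 of 14582 genes were called. Members called in liver fell to 0 without WT liver 2, WT liver 3 or null liver 1. Calls over all liver genes fell there too, from 3856 of 14343 to 2268 of 14546, 1641 of 14529 and 3451 of 14501. Without WT liver 1 they were 2150 of 14541. In lung edgeR called 0 of all genes without any single library other than null lung 1. With all 12 libraries in 1 fit, 0 members were called in liver, 1 in lung (Shh), and 9 pathway genes in lung. Of 16155 genes, that fit called 1921 in liver and 2284 in lung. DESeq2 called 2 members and 10 pathway genes in lung and 5 pathway genes for the tissue difference, beside 15.1% and 3.94% of all genes. A minimum of 10 counts in every library gave 1 pathway gene in lung, where 210 of 14426 genes were called. Some alternatives were chosen after seeing the data. DESeq2 without null lung 1 called 2 members and 25 pathway genes in lung, beside 6444 of 15849 genes. For the difference it called 1 and 8 (Ptch1 -0.90), beside 1727 of 14485. DESeq2 without null liver 1 called 3 pathway genes for the difference, beside 469 of 15069. With both libraries left out, edgeR called 3 pathway genes for the difference, beside 840 of 16216. DESeq2 called 8 there and 1 member (Ptch1 -0.77), beside 1631 of 15028. The cause was not tested.

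Signs turned only in members that were not called. Without single libraries the log2 fold change ran from -0.41 to 0.29 for Ihh in liver, -0.27 to 0.40 for Gli1 in liver, -0.43 to 0.35 for Gli1 in lung, -0.88 to 0.044 for Hhip in lung and -0.23 to 0.20 for Smo in lung, and the tissue difference from -0.53 to 0.32 for Gli1, -0.69 to 0.26 for Hhip, -0.073 to 0.36 for Smo and -0.048 to 0.19 for Sufu. DESeq2 without null lung 1 gave -0.21 for Smo, -0.40 for Gli1 and 0.068 for Hhip in lung and differences of -0.077 for Smo and 0.25 for Hhip; without null liver 1 it gave -0.25 for Gli1 in liver and 0.32 for its difference. Without both libraries the differences were -0.0067 (edgeR) and -0.0073 (DESeq2) for Smo, and 0.18 with either for Hhip. Upper-quartile factors gave 0.013 for the Gli1 difference.

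Upper-quartile factors also moved the median of all liver genes from 0.02 to -0.09 on the log2 scale and the split of liver calls from 1931 higher and 1925 lower to 1434 and 2666; Ptch1 in liver remained called. WT and null libraries of one number share only a number (r -0.04 to 0.16, and 2 of 6 libraries in each tissue matched their own number best); with it as a block, 7 pathway genes were called in liver, 3304 of 14343 genes in liver and 0 in lung, and Ptch1 stayed the 1 member called in liver. The animal block over liver and lung changed no call of a member.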
